A study of Mus musculus with 21 samples.

Results

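Among the activated mouse CD8 T cells that had spent 3 days with 50 IU/mL IL-2v, 631 of 4812 cells held 0 UMIs of both Mki67 and Top2a. A UMI (unique molecular identifier) marks 1 captured RNA molecule. Mki67 encodes the Ki-67 protein and Top2a encodes topoisomerase II alpha, which both accompany cell division. The cells were chosen by these counts alone and are called cells with neither UMI. The remaining 4181 cells, with at least 1 UMI of either gene, are called cells with either UMI. The whole series held 106456 kept cells. Because the counts of Mki67 and Top2a chose the cells, both genes were left out of every comparison, and the differences between the classes inside this library are given as a description with no test. A model across the 7 day 3 libraries, with 1 library in the arm of interest, is given later with that limit.

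The cells were naive CD8+ OT1 T cells, which carry a transgenic T cell receptor for a peptide of ovalbumin, activated on day 0 with beads that present antibodies to CD3 and CD28. The treatment label of the library names a mutant, IL-2bg, at 50 IU/mL, and the design text calls the cytokine IL-2v. It was set beside untreated naive cells of day 0 and 6 other libraries of day 3, all with the same beads: no exogenous cytokine, low (5 IU/mL) and high (50 IU/mL) IL-2, low IL-2v at 5 IU/mL, and low and high IL-15 at the same doses. Where the titles give high IL-2 and high IL-15, the treatment labels name interleukin-3 and interleukin-16, and the titles were followed. Each condition had 1 library, the labels do not say how many animals gave the cells, and the extraction text speaks of a sort of tumour-infiltrating cells although the growth text describes cultured ones.

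A dividing T cell first licenses its replication origins, for which the Mcm genes encode the helicase, then copies its DNA in S phase with nucleotides made by ribonucleotide reductase and clamps made from Pcna, and packs the new DNA with histones. Transcripts for mitosis, among them Cdk1, the cyclins and the kinesin motors, accumulate later, in G2. E2F factors drive many S phase genes, and the DREAM and MuvB complexes act on many G2 and mitosis genes through a promoter element named CHR. IL-2 and IL-15 share receptor chains and signal through STAT5 in T cells.

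The share of cells with neither UMI was 13.1% (exact Clopper-Pearson 95% interval 12.2% to 14.1%), against 26.2% to 44.3% in the 6 other day 3 libraries. In naive cells it was 97.0%, so 144 of 4777 naive cells held a UMI of either gene, at a median of 4425.5 UMIs per cell against 3789 in the naive cells with neither. After each cell had been thinned at random to 2000 UMIs, the share was 21.5% (20.3% to 22.7%), against 35.9% in the library titled as high IL-2 and 53.3% with 5 IU/mL IL-15, the nearest and the farthest of the 6. The share was thus below the others at equal depth as well, and the intervals cover counting error only. Thinning left out 273 of the 4812 cells.

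**Figure D1:**
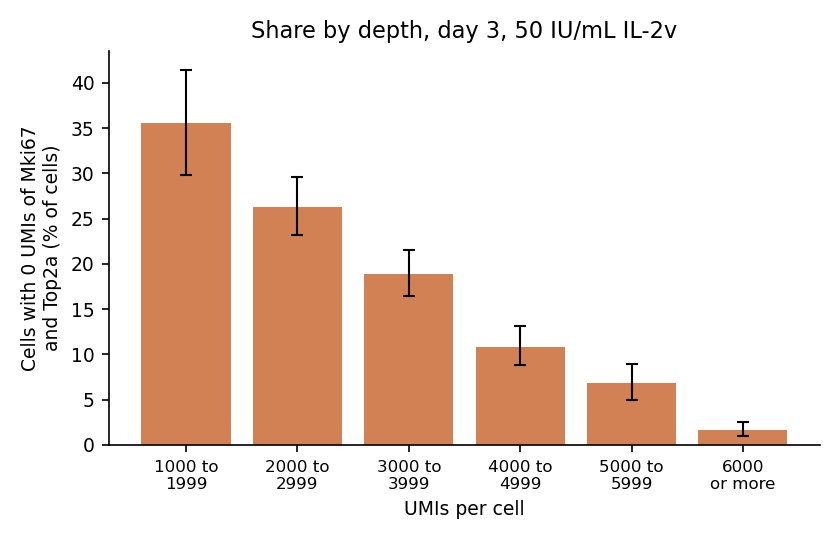
Share of cells with 0 UMIs of Mki67 and Top2a in the day 3 library with 50 IU/mL IL-2v, in percent of cells, by UMIs per cell, with exact 95% intervals. The share fell from 35.5% of 276 cells at 1000 to 2000 UMIs to 1.65% of 1334 cells at 6000 UMIs or more.

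Depth moved with the class. Cells with neither UMI had a median of 3104 UMIs and cells with either UMI 4798, and the share with neither UMI fell at every step of depth in the plot of share by UMIs. When cells with either UMI were thinned to 2000 UMIs, 11.1% of them lost every UMI of both genes. Cells were therefore matched 1 to 1 within bins of 100 UMIs, which kept 626 cells per class with medians of 3117 and 3119 UMIs. At this equal depth the cells with neither UMI held fewer genes (median 1358 against 1427), a mitochondrial share of 5.21% against 4.96% and a ribosomal protein share of 31.4% against 28.4% of UMIs. No doublet caller was run. Of the 4812 barcodes, 122 also occurred in another library, 16 of them in cells with neither UMI. Just outside the rule stood 529 cells with 1 UMI and 389 with 2 UMIs of both genes together.

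The name noncycling was read against other genes of the cell cycle, and the lists gave different answers. In cells thinned to 2000 UMIs, the 52 genes of the S phase list gave a median of 10 UMIs per cell with neither UMI and 12 per cell with either UMI. The same list gave a median of 2 UMIs in naive cells with neither UMI and 2 to 3 UMIs in cells with neither UMI of the 6 other day 3 libraries. The 61 genes of the G2 and mitosis list gave a median of 9 UMIs against 20 with either UMI, 4 in naive cells with neither UMI and 5 to 6 in the 6 others. Clustered histone genes gave a median of 1 UMI against 4, 0 in naive cells with neither UMI and 0 to 1 in the 6 others. No histone UMI was found in 46.2% of these cells, against 43.8% to 59.7% in cells with neither UMI of the 6 others. Summed over all cells with neither UMI, histones took 615 CPM here and 271 to 456 CPM in the 6 others. By the S phase and the G2 and mitosis medians and the histone sum the cells thus lay above the other cells with neither UMI, and by the histone median and the share with 0 histone UMIs within their range. Of 533 thinned cells with neither UMI, 444 held more S phase UMIs than 4, the 95th percentile of naive cells with neither UMI, and 89 held 4 or fewer. The border was not sharp, since 66 of the 533 cells lay within 1 UMI of it. The S phase list thus does not bear out the name noncycling for most of these cells. Since the lists differ in how far they depart from naive cells, the cells are named here by their rule.

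**Figure D2:**
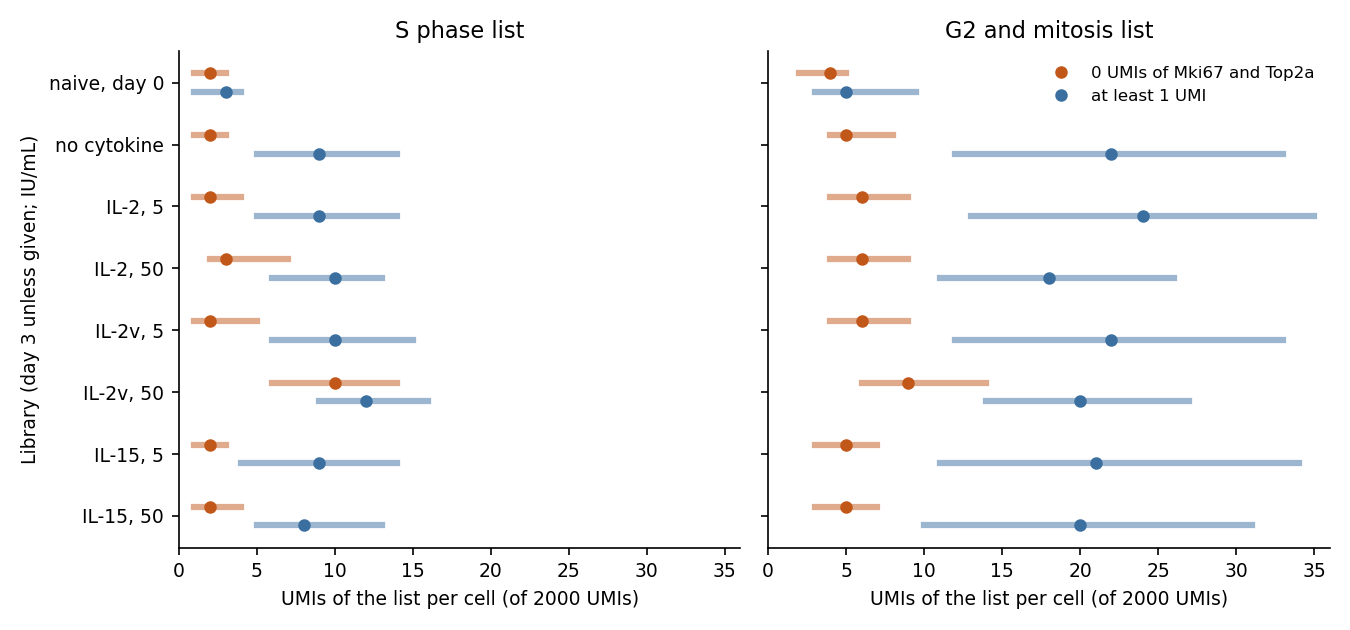
UMIs of the S phase list (left) and of the G2 and mitosis list (right) per cell of 2000 UMIs, in naive cells and the 7 day 3 libraries. Points are medians and bars the middle 50% of cells. In the S phase panel the cells with 0 UMIs of Mki67 and Top2a in 50 IU/mL IL-2v have a median of 10 UMIs, against 2 to 3 in the other 7 libraries drawn.

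Summed over all cells with 0, 1, 2 and at least 3 UMIs of the rule's genes, in that order, the S phase list took 5096, 6054, 6488 and 6123 CPM, which are UMIs scaled to a total of 1000000 per sum. The G2 and mitosis list took 5233, 6428, 7571 and 11622 CPM at the same steps, and the histones 615, 1018, 1497 and 2973 CPM. From 0 to 1 UMI all 3 sums were higher, and beyond 2 UMIs the S phase sum was lower while the mitotic and histone sums went on climbing. Depth climbed too, with medians of 3104, 3467, 3698 and 5258 UMIs per cell at these steps.

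Markers of T cells were present in 626 of 626 matched cells of both classes. Of markers of other cell types, a UMI of any of 4 CD4 T cell genes was found in 4.47% of cells with neither UMI and 6.39% of cells with either UMI, of 7 B cell genes in 3.04% and 4.63%, of 8 myeloid genes in 2.40% and 1.76%, and of 5 NK cell genes in 1.76% and 1.92%. No UMI of 3 erythroid genes occurred in 626 cells of either class, which allows a share of cells with a UMI of up to 0.588% and sets no limit on cells that express the genes. At 0 UMIs in cells with neither UMI were 2 of the 4 CD4 T cell genes, 4 of the 7 B cell genes, 4 of the 8 myeloid genes and 3 of the 5 NK cell genes. The summed level of each of these lists was at most 20.7 CPM in both classes.

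To ask which genes separate the classes at equal depth, UMIs were summed over the 626 matched cells of each class, scaled to CPM and compared as log2(CPM + 1), a scale that understates changes of low genes. Such sums cannot tell fewer expressing cells from less RNA per cell. The Poisson intervals given with them cover counting error only and leave out the spread between cells and between libraries. Their overlap or distance is therefore no test. Of 6191 genes with at least 20 CPM in either class, 159 were at least 2-fold lower in cells with neither UMI (2.57%) and 7 at least 2-fold higher (0.113%). The median of all genes was -0.10. With TMM scaling the median became 0.02 and the counts 131 lower and 25 higher. With ribosomal protein and mitochondrial genes left out of the totals the counts were 201 and 38. Of the 159 lower genes, 62 belonged to the lists of S phase, G2 and mitosis, chromatin of dividing cells or histones.

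The G2 and mitosis list had the larger difference of the phase lists, with a median log2 difference of -1.27. Of its 61 members 56 were tested, of which 39 were at least 2-fold lower and none was 2-fold higher. With no filter on low genes the median of the list was -1.28. Matching kept the shallower cells with either UMI, in which the list took 9733 CPM, against 10877 CPM over all cells with either UMI. Without matching the median of the list was -1.52, and the S phase and clustered histone lists had medians of -0.34 and -1.75. Prc1, which bundles the microtubules of the central spindle, stood at 7.70 CPM (exact Poisson 95% interval 4.40 to 12.5) in cells with neither UMI and 81.4 CPM (69.5 to 94.6) in cells with either UMI, a log2 difference of -3.24. Nusap1, a spindle protein, stood at 15.9 CPM (10.9 to 22.3) against 145 CPM (129 to 162). Kif11, the kinesin that separates the spindle poles, stood at 17.3 CPM (12.1 to 24.0) against 129 CPM (114 to 145). For each of these the intervals of the classes lay far apart. Spc25, part of the kinetochore, differed by -2.96, Kif23, a kinesin of cytokinesis, by -2.58 and Ckap2l, a spindle protein, by -2.34.

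The decline was uneven within the list. Cdk1, the kinase that drives entry into mitosis, stood at 50.1 CPM (40.9 to 60.7) against 196 CPM (178 to 216), so its level was lower but far from absent. Ccna2, cyclin A2, stood at 37.5 against 120 CPM. Cdc20, an activator of the anaphase-promoting complex, stood at 65.9 CPM (55.4 to 78.0) against 57.8 CPM (47.9 to 69.1), and Ccnb2, cyclin B2, at 79.4 CPM (67.8 to 92.5) against 74.6 CPM (63.3 to 87.3). The intervals of these last 2 genes overlapped between the classes.

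The promoters of 3 of the genes with the lowest differences, Spc25, Kif11 and Kif23, are shown because the elements by which G2 and mitosis genes are known to be regulated can be read in them. They are RefSeq windows on GRCm38.p6 from 250 bases before to 50 after the annotated start, on the gene's strand, 5′ to 3′, and capitals mark the CHR letters TTTGAA or TTCGAA and the CCAAT box, on both strands. Spc25 lies at chr2:69206164-69206463 on the minus strand, Kif11 at chr19:37376132-37376431 on the plus strand and Kif23 at chr9:61946750-61947049 on the minus strand.
Spc25: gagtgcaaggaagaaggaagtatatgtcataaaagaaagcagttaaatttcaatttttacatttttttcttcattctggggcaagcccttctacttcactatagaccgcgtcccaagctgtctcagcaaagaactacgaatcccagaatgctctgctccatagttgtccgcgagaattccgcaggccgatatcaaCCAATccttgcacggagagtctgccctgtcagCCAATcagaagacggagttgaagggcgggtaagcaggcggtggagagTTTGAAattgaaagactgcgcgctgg
Kif11: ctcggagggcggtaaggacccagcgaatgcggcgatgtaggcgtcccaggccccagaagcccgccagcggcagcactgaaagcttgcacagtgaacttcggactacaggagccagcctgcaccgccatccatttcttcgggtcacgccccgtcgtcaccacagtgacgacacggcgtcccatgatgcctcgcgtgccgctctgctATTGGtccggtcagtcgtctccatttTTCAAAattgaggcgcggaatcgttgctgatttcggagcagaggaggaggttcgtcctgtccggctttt
Kif23: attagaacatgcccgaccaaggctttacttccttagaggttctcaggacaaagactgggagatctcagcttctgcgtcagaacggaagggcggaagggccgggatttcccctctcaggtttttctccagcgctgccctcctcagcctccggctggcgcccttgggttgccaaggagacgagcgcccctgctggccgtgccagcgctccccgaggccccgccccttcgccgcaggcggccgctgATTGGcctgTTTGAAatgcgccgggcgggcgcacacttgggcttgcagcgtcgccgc

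The 3 windows were picked because they hold both sets of letters, while the window of Nusap1, the second lowest of the named genes, holds neither. Of 61 genes of the G2 and mitosis list, 53 had a window, and 75.5% of these held CHR letters, against 17.2% of the 4974 tested genes with a window and 21.7% of all 27023 genes with a window. CHR and CCAAT letters occurred together in 1 window in 62.3% of the G2 and mitosis genes with a window and in 7.34% of the tested genes with a window. A match of letters is a description of the window and shows no binding.

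S phase genes stood closer between the classes than the mitotic ones. Of 50 tested members, 42 were lower in cells with neither UMI by any amount and 8 higher, where 62.9% and 37.1% of all tested genes were. Of the 50, 5 were at least 2-fold lower, and the median was -0.48. It was -1.75 when cells with neither UMI also had to hold at most 2 UMIs of the G2 and mitosis list, with 27 matched cells per class. Of the 6 replicative helicase genes, 5 had intervals that overlapped between the classes: Mcm6 stood at 239 CPM (218 to 261) against 236 CPM (216 to 258), Mcm3 at 269.5 CPM (248 to 293) against 283 CPM (260.2 to 306) and Mcm7 at 197 CPM (178 to 217) against 212 CPM (193 to 233), with log2 differences of 0.08 for Mcm4 and -0.23 for Mcm2. Mcm5, of the same helicase, was lower, at 192 CPM (174 to 212) against 281 CPM (259 to 305). Hells, a chromatin remodeller, stood at 194 against 174 CPM, and E2f1, an E2F factor, at 43.8 against 43.3 CPM. The intervals of Hells and E2f1 overlapped between the classes as well.

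Other genes of replication were lower. Pcna, the sliding clamp, stood at 342 CPM (317 to 368) against 455 CPM (427 to 485). Rrm2, a subunit of ribonucleotide reductase, stood at 91.0 CPM (78.5 to 105) against 160.3 CPM (144 to 178). E2f8, a repressor among the E2F factors, stood at 6.74 CPM (3.68 to 11.3) against 37.5 CPM (29.7 to 46.9), the lowest log2 difference of the list at -2.32. In the opposite direction, Ung, which removes uracil from DNA, stood at 61.6 CPM (51.4 to 73.3) against 27.9 CPM (21.2 to 36.1), a log2 difference of 1.11, and it was the S phase gene at least 2-fold higher.

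The promoter of Mcm3, at chr1:20820263-20820562 on the minus strand of GRCm38.p6, is shown as an S phase gene whose intervals overlapped between the classes, with the E2F letters TTTCCCGC or TTTGGCGC and the CCAAT box in capitals, on both strands.
Mcm3: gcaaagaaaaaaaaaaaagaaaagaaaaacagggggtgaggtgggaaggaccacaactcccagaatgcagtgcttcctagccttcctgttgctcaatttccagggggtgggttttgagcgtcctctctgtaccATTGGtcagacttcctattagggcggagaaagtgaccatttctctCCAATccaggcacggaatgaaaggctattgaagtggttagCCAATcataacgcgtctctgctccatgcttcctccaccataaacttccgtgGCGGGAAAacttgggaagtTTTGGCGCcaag
E2F letters occurred in 33.3% of the 39 S phase genes with a window. They occurred in 3.77% of the G2 and mitosis genes with a window, against 4.34% of the tested genes with a window. CHR letters occurred in 17.9% of the S phase genes with a window, and among the helicase genes in the window of Mcm2 and in 1 of those of Mcm7.

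Of the 66 clustered histone genes, whose RNA is made in S phase, 18 were tested. Each of the 18 was lower, where 62.9% of all tested genes were, and 15 were at least 2-fold lower. Their median was -1.53. A gene was tested if either class reached the CPM limit, so a member could pass by its higher class alone. With no filter on low genes the median of the list was -1.24. Hist1h1b, a linker histone, stood at 43.8 CPM (35.3 to 53.8) against 252 CPM (231 to 275), and Hist1h2ap at 175 CPM (157 to 194) against 888 CPM (848 to 929). Single histone genes are uncertain, since they have near-identical copies, and 28.6% of the exonic bases of Hist1h2ap overlap Gm44466 on the opposite strand. The histone median was thus farther from 0 than that of the S phase list.

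Outside the cell cycle lists, the 12 genes with the lowest differences among those with at least 50 CPM in the higher class lay between -2.21 and -1.33. Incenp, a scaffold of the chromosomal passenger complex, stood at 49.6 CPM (40.5 to 60.1) against 233 CPM (213 to 255). Pclaf, a partner of PCNA, stood at 189 CPM (170 to 208) against 508 CPM (478 to 539). Smc2, a condensin subunit, stood at 74.6 CPM (63.3 to 87.3) against 227 CPM (207 to 248). Cit encodes a kinase of cytokinesis, Fzr1 and Fbxo5 an activator and an inhibitor of the anaphase-promoting complex, Knl1 and Spc24 kinetochore proteins, Sgo1 a protector of cohesion, Asf1b a histone chaperone and Kif15 a spindle motor. Arhgap11a was the other member of the group. At lower levels, Mxd3, a partner of Max chosen after its values were seen, rested on 4 UMIs against 54.

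The 12 genes with the highest differences under the same limit were a mixed group with smaller values, from 0.80 to 1.25 on the log2 scale. Mrps21, a mitochondrial ribosome protein at chr3:95862634-95871519, stood at 88.1 CPM (75.8 to 102) against 36.6 CPM (28.8 to 45.8). Plac8, at chr5:100553725-100572245, was the most abundant, at 753 CPM (716 to 791) against 418 CPM (391 to 447), a log2 difference of 0.85. The chemokine Ccl5 stood at 82.8 CPM (70.9 to 96.1) against 42.8 CPM (34.4 to 52.7), but 5 cells held 67 of its 172 UMIs among cells with neither UMI. The Ccl5 difference became -0.033 when all cells were thinned to 2000 UMIs and -0.24 without cells that held a UMI of another cell type.

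The other 9 were Naa38, Gng10, Rala, Smim11, Pnp, Serpinb6b, Tmem59, Rrp15 and Timm17a, with log2 differences from 0.80 to 0.999. Serpinb6b, of the multigene serpin family, became -0.026 with all cells thinned, and Gng10 is uncertain, since 72.0% of its exonic bases overlap Gm20503 on the same strand. Smim11 became -1.53 when cells with neither UMI also had to hold at most 2 UMIs of the G2 and mitosis list, which left 27 matched cells per class. These 12 genes tended to be short, though the longest transcript of Timm17a had 7280 bases. Their longest annotated transcripts had a median of 1500 bases, against 3331 bases for 6022 tested genes outside the cell cycle lists. Among those genes the median log2 difference went from 0.09 in the 1205 shortest to -0.20 in the 1204 longest, and from between 0.02 and 0.05 to between -0.30 and -0.17 in the 6 other day 3 libraries. The part of transcript length in the differences was not tested.

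**Figure D3:**
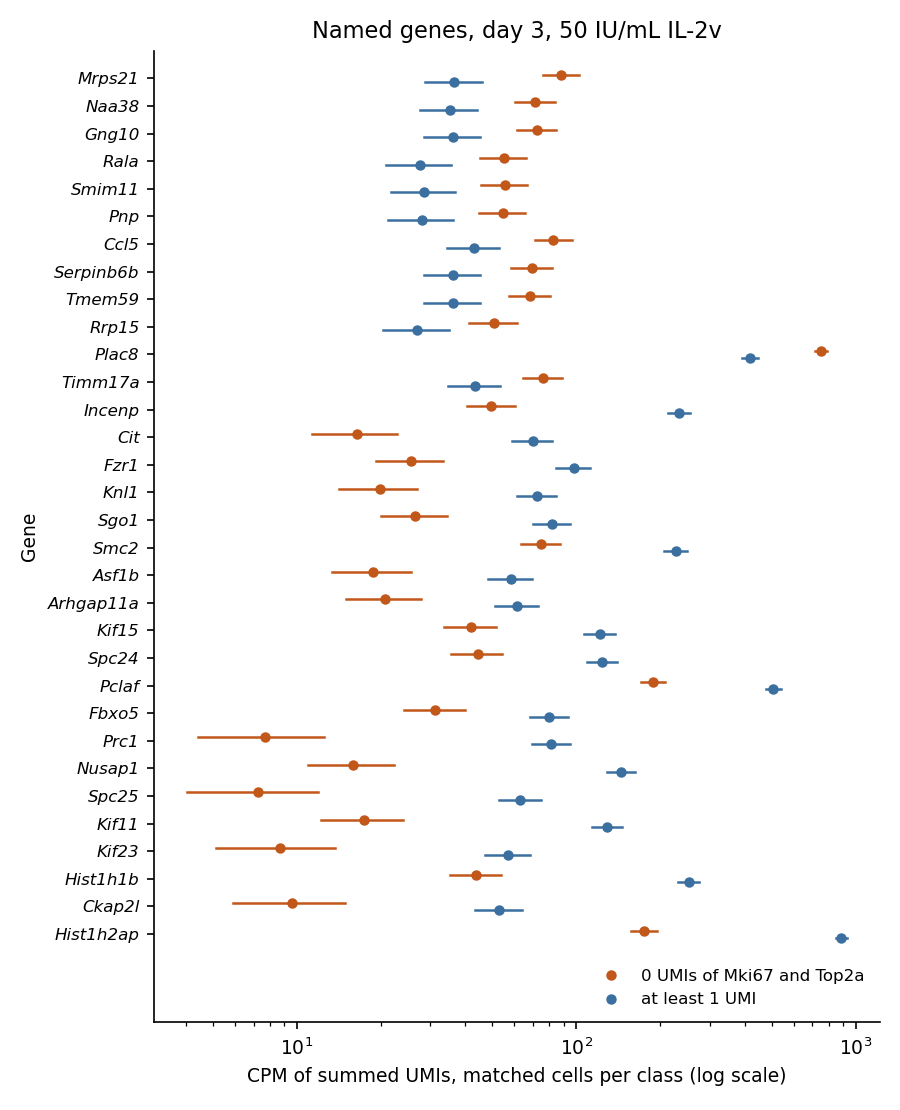
Level of the named genes in CPM on a log scale, in 626 matched cells per class of the day 3 library with 50 IU/mL IL-2v, with exact Poisson 95% intervals as bars. Prc1 to Hist1h2ap at the bottom are the lowest where the higher class reached 50 CPM, and their classes stand farther apart than those of Mrps21 to Timm17a at the top.

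Lists beyond the cell cycle differed little, and each is given beside the -0.10 of all genes. No tested member of the lists in this paragraph was 2-fold different. Cholesterol synthesis had a median of -0.28, with Hmgcs1, an early enzyme of the pathway, at 197 against 287 CPM. The amino acid and ATF4 list had a median of -0.36, and the stress factor Atf4 itself stood at 321 CPM (297 to 346) against 546 CPM (515 to 579). On the higher side stood effector genes with a median of 0.31, led in abundance by the granzyme Gzmb at 1726 CPM (1669 to 1783) against 1291 CPM (1242 to 1340.4), the interferon response list with 0.27 and ribosomal proteins with 0.16.

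Genes of quiescent and naive T cells differed little between the classes, with a median of 0.02. Of 21 tested genes, 11 lay above 0 and 10 below, where 37.1% and 62.9% of all tested genes did. The transcription factor Tcf7 stood at 79.4 CPM (67.8 to 92.5) against 62.1 CPM (51.8 to 73.8). The CDK inhibitor and arrest list had a median of -0.08, with Cdkn1b, p27, at 28.9 against 37.5 CPM and Cdkn1a, p21, at 39.0 against 34.2 CPM. D cyclins and their kinases had a median of 0.01. STAT5 targets had a median of 0.04, and Il2ra, the alpha chain of the IL-2 receptor, stood at 652 against 714 CPM.

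The metallothionein Mt1, which binds zinc, was the gene with the highest difference among all tested, at 43.3 CPM (34.8 to 53.2) against 14.4 CPM (9.74 to 20.6), a log2 difference of 1.52. The other 6 genes at least 2-fold higher were Ung and Mrps21, given above, and Kdm5b, Smim27, Lsm10 and Mxd4, named after their values were seen. Kdm5b, a histone demethylase, rested on 63 UMIs against 25 and Mxd4, a partner of Max, stood at 23.1 CPM (17.0 to 30.6) against 10.1 CPM (6.26 to 15.5).

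The same rule was then applied to the 6 other day 3 libraries. Their matched sums were tested with edgeR's quasi-likelihood test, with the library as a block. The classes of these libraries were set by the same counts of Mki67 and Top2a. Lower levels of other genes of cell division thus follow from the rule and are no independent support. Of 10581 genes tested, 2690 were higher (25.4%) and 2780 lower (26.3%) in cells with neither UMI at an adjusted p under 0.05. With library totals in place of TMM scaling these were 1656 and 4062. Against these shares, 52 of 52 S phase genes and 60 of 61 G2 and mitosis genes were lower and none was higher. Prc1 fell by 3.84 (log2) with an adjusted p of 8.8e-21, and Kif11 by 4.27 with an adjusted p of 2.0e-20, each lower in 6 of 6 libraries. Mcm3, whose intervals overlapped in 50 IU/mL IL-2v, fell by 1.30 in the others with an adjusted p of 2.7e-15, lower in 6 of 6.

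Outside the cell cycle, 18 of 20 cholesterol synthesis genes fell in the 6 other libraries, and 21 of 24 genes of quiescent and naive cells, 17 of 18 interferon response genes and 73 of 80 ribosomal protein genes rose. Tcf7 rose by 0.65 with an adjusted p of 9.8e-12, higher in 6 of 6 libraries, and Plac8 rose by 1.005 with an adjusted p of 5.4e-18, higher in 6 of 6. The 12 genes highest in 50 IU/mL IL-2v had been limited to at least 50 CPM, which the genes tested in the others were not. Of these 12, 12 passed the test on the higher side in the others, against 25.4% of all 10581 genes. The smallest of these was Pnp, a purine enzyme, which rose by 0.24 with an adjusted p of 0.021 and was higher in 4 of 6 libraries; without matching on depth its value was -0.090.

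**Figure D4:**
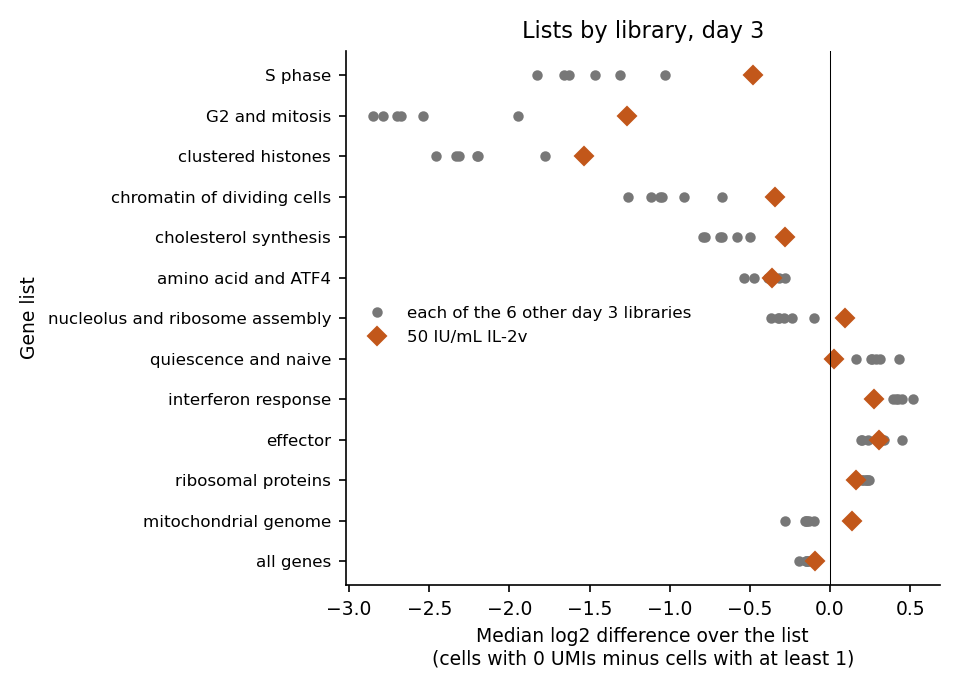
Median log2 difference between cells with 0 UMIs of Mki67 and Top2a and cells with at least 1, for each gene list (rows), in 50 IU/mL IL-2v (diamonds) and the 6 other day 3 libraries (circles). For S phase the diamond stands at -0.48 and the circles between -1.83 and -1.03.

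Side by side, the median difference of the S phase list was -0.48 in 50 IU/mL IL-2v and between -1.83 and -1.03 in the 6 others, and that of the G2 and mitosis list -1.27 against -2.85 to -1.95. The quiescent and naive list had 0.02 against 0.16 to 0.43, and nucleolus and ribosome assembly 0.09 against -0.37 to -0.10. In each of these lists the library with 50 IU/mL IL-2v lay outside the range of the other 6. With the limit of 2 UMIs of the G2 and mitosis list, set in 50 IU/mL IL-2v alone, the S phase median of -1.75 lay inside the range of the others and the nucleolus median of -0.51 below it. Across 6191 genes, the difference in 50 IU/mL IL-2v and the mean of the 6 others had a Pearson r of 0.71 with a slope of 0.52, a description over genes that share libraries and are not independent.

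**Figure D5:**
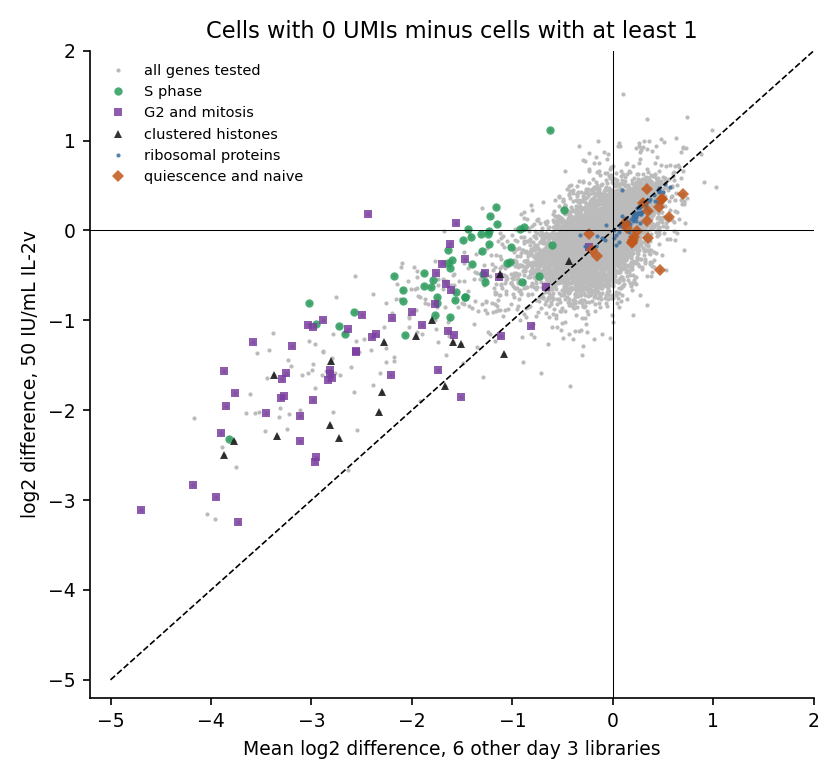
Log2 difference per gene in 50 IU/mL IL-2v against the mean of the 6 other day 3 libraries, with 5 gene lists in colour. The dashed line marks equal differences. The slope over all genes is 0.52, and the S phase genes have a median of -0.48 on the vertical axis.

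Whether single genes differed in this way was tested as the interaction of class and library over the 7 day 3 libraries, with the lone 50 IU/mL IL-2v library assumed to vary as the other 6 do. The spread comes from libraries that differ in cytokine and dose, so the p-values set 1 library against those 6 and do not speak for the condition. Relative to its size, the lower count that follows moved more than the higher one when single libraries were left out. It shrank the most without the low IL-2 library. Of 10525 genes, 220 had a higher difference in 50 IU/mL IL-2v (2.09%) and 29 a lower one (0.276%). Of the 220, 87 were in the cell cycle lists, among them 36 of 52 S phase and 35 of 61 G2 and mitosis genes. Without the high IL-2 library the counts were 475 and 58, and 249 genes were shared with those of the full set. With cells of at least 4000 UMIs, 117 and 20 genes passed, of which 54 were cell cycle genes, and DESeq2 called 113 and 6.

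Mcm3 had an interaction of 1.30 with an adjusted p of 5.8e-06, and Cdc20 of 2.67 with an adjusted p of 2.8e-06, as its difference was 0.19 in 50 IU/mL IL-2v and between -2.91 and -1.63 in the others. Rrm2 had an interaction of 2.24 with an adjusted p of 1.8e-04. These genes were less lowered, or not lowered, in the single 50 IU/mL IL-2v library. Thinning to 2000 UMIs took the cells with neither UMI from 533 to 976 in that library and from 830 to 1202 with high IL-2. The interactions themselves used matched cells without thinning. On thinning, 11.1% of cells with either UMI lost them all in 50 IU/mL IL-2v, against 12.7% to 18.7% in the 6 others. In the thinned class, cells that lost their UMIs thus made up a larger part in 50 IU/mL IL-2v than with high IL-2. The part of such cells in the interactions was not tested. Several mitotic genes did not pass: Prc1 had an interaction of 0.50 with an adjusted p of 0.67 and Kif23 of 0.36 with an adjusted p of 0.77. Of the mitochondrial genome, 6 of 13 genes had a higher difference, with mt-Nd3, a subunit of complex I, at 0.60 with an adjusted p of 1.6e-04. Mitochondrial UMIs moved with it: their share was higher in matched cells with neither UMI in 50 IU/mL IL-2v (5.21% against 4.96%) and lower in each of the 6 others. Without matching, the median share per cell was 5.18% against 4.27% in 50 IU/mL IL-2v, and the 6 others were mixed. It was 3.25% against 3.22% with high IL-2 and 4.64% against 4.89% without cytokine. The part of these UMIs in the result was not tested.

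Of the lists with few calls, Bach2, a repressor linked to naive cells, had an interaction of -0.995 with an adjusted p of 0.046. Bach2 stood at 27.4 against 37.5 CPM in 50 IU/mL IL-2v and was higher in cells with neither UMI in 6 of 6 others. Mt1 had an interaction of 1.41 with an adjusted p of 0.046. Mrps21, first of the 12 highest genes, had an interaction of 0.86 with an adjusted p of 0.016, while the other 11 of its group did not pass.

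Levels in cells with neither UMI were last set side by side between libraries, over all such cells and with no test, since each condition had 1 library. Every comparison shares the cells of 50 IU/mL IL-2v, and the shares of cells with neither UMI differ between libraries, as do their median depths, at 3104 UMIs here, 3331 to 3780.5 in the 6 others and 3789 in naive cells. Against naive cells, 1061 of 6372 genes (16.7%) had at least a 2-fold higher level and 680 (10.7%) a lower one. Mcm3 stood at 269 CPM (247 to 292) in 50 IU/mL IL-2v and 28.9 CPM in naive cells, with 51.7 CPM without cytokine, 67.3 and 105 CPM with low and high IL-2, 100.5 CPM with low IL-2v, and 63.6 and 76.5 CPM with low and high IL-15. High IL-2v was the highest, high IL-2 and low IL-2v lay close together, and the rest followed. Of 48 S phase genes, 45 were at least 2-fold higher than in naive cells, and of 24 quiescent and naive genes 16 were at least 2-fold lower.

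Against cells with neither UMI without cytokine, 996 of 5983 genes (16.6%) had at least a 2-fold higher level and 229 (3.83%) a lower one. The higher genes held 44 of 48 S phase genes, 22 of 24 of nucleolus and ribosome assembly and 8 of 11 STAT5 targets, and the lower ones 14 of 22 quiescent and naive genes. Nop56, a nucleolar protein, stood at 415 CPM against 55.6 CPM, and Il2ra at 653 CPM against 139 CPM. Tcf7 stood at 79.7 CPM against 344 CPM and Ccr7, a homing receptor of naive cells, at 59.5 CPM against 248.5 CPM. Cdkn1b stood at 28.8 CPM against 91.8 CPM and lay between 67.7 and 110.4 CPM in naive cells and all 6 other day 3 libraries. On the S phase list the median log2 difference was 2.05 for cells with neither UMI and 0.29 for cells with either UMI. The STAT5 targets had medians of 1.60 and 1.66 and the nucleolus list 1.98 and 1.495, so these lists stood higher in both classes.

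At the same dose of IL-2, 256 of 6072 genes (4.22%) stood at least 2-fold higher in 50 IU/mL IL-2v and 222 (3.66%) lower. The higher genes held 28 of 48 S phase and 6 of 10 interferon response genes, and the lower ones 6 of 18 glycolysis genes. The summed interferon list took 834 CPM with high IL-2, 1687 CPM in 50 IU/mL IL-2v and 1881 to 2301 CPM in the rest of day 3. Glycolysis took 21795, 13217 and 12835 to 17786 CPM in the same order. High IL-2 was thus the lowest of day 3 on the interferon list and the highest on glycolysis. Mt1 stood at 43.2 CPM against 860.3 CPM and Cdkn1a at 38.9 CPM against 115 CPM. The interferon response list had medians of 1.25 in cells with neither UMI and 1.17 in cells with either UMI, and the mitochondrial genome 0.71 and 0.31. The interferon and glycolysis differences were thus similar in size in both classes, with glycolysis at -0.90 and -0.75.

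At the same dose of IL-15, 461 of 5975 genes were at least 2-fold higher in 50 IU/mL IL-2v (7.72%) and 178 lower (2.98%), with 45 of 48 S phase and 24 of 36 G2 and mitosis genes among the higher. At the lower dose of IL-2v, 497 of 5984 genes were higher in 50 IU/mL (8.31%) and 155 lower (2.59%), with 39 of 48 S phase and 19 of 24 nucleolus genes among the higher. Gzmb, the granzyme, stood at 1724 CPM in 50 IU/mL IL-2v, 888 CPM in 5 IU/mL IL-2v, 907 CPM in 50 IU/mL IL-15 and 2099 CPM in 50 IU/mL IL-2.

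The 89 thinned cells with few S phase UMIs were set beside the other 444, as a range of the S phase score and not a cell type. Their medians were 2 and 11 S phase UMIs by construction, and 5 and 10 UMIs of the G2 and mitosis list. Over 6335 genes the median log2 difference was -0.06. The CDK inhibitor and arrest list had a median of 0.90, the interferon response list 0.63, p53 targets 0.61 and the quiescent and naive list 0.48. Cdkn1a rested on 16 UMIs in the 89 cells, 89.9 CPM (51.4 to 146), and 28 UMIs in the 444, 31.5 CPM (21.0 to 45.6). Cdkn1b rested on 8 and 18 UMIs, 44.9 CPM (19.4 to 88.6) and 20.3 CPM (12.01 to 32.0), and its intervals overlapped. The median of that list fell on Btg2, an antiproliferative gene, with 8 and 21 UMIs and overlapping intervals, and Rbl1, a relative of the retinoblastoma protein, went the other way with 0 and 36 UMIs. Lower in the 89 cells were nucleolus and ribosome assembly at -0.63 and cholesterol synthesis at -0.79. Granzyme Gzmb stood at 1753 CPM (1564 to 1958.5) and 1598 CPM (1516 to 1683), with intervals that overlapped.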

How the data were processed

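The authors deposited 1 table per library of raw UMI counts per gene symbol and cell barcode, with whole numbers only; per the submitters' processing notes Cell Ranger, Seurat 3.0.2 and 4.0.1 and mm10 were used, with no order given. The members and gene lists were chosen with earlier results of these data known. Kept cells had 1000 UMIs or more, 500 genes or more and a mitochondrial share of 10% or less (3250 to 7105 per library, 10589950 to 32648496 UMIs).

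Classes were matched 1 to 1 in bins of 100 UMIs, summed, scaled to CPM and compared as log2(CPM + 1) among genes of at least 20 CPM. Named genes outside the cell cycle lists were the 12 highest and 12 lowest with at least 50 CPM in the higher class, then the 8 lowest of all, list members, and 5 each way for the interaction. Matched sums of other day 3 libraries (12 sums, and 14 for the interaction) were tested with edgeR 4.0.16 (quasi-likelihood, TMM, Benjamini-Hochberg) in R 4.3.3. The fit of the 6 other libraries was also run on simulated data. It recovered 100% of 98 genes changed by 1 log2 and 71% of 100 changed by 0.5, with 10 false calls among 10493 genes. The simulated counts had a fixed spread, and few genes were changed, up and down alike. The simulation therefore cannot speak for false calls or scaling in the real data, where far more genes were called. DESeq2 1.42.0 was an alternative. Both classes of a library come from the same culture, which the block pairs. P-values measure the spread between libraries that differ in cytokine and dose. Python 3.11.15 with numpy 2.4.6, pandas 2.3.3 and scipy 1.17.1 did the rest. Gene positions are from GENCODE on the mm10 assembly, and promoters from RefSeq. Some members of the gene lists are not reported here.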

Additional observations from a re-analysis of the deposited data

Results flagged for a closer look

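For 10 named genes the model gave a difference between the classes in the single 50 IU/mL IL-2v library that was unlike that in the 6 other day 3 libraries (edgeR, adjusted p under 0.05). With 1 library in that arm this compares libraries, not conditions. On the higher side, the log2 interaction was 2.95 for Iqgap3, a scaffold protein, 2.79 for Kif2c, a kinesin that takes microtubules apart, 2.73 for Ttk, a kinase of the spindle checkpoint, 2.70 for Pbk, a mitotic kinase, and 2.70 for Stil, which acts in centriole duplication. Each was lower in cells with neither UMI in 6 of 6 other libraries, and Ttk stood at 9.63 CPM against 30.3 CPM in 50 IU/mL IL-2v. On the lower side it was -2.46 for Rhob, a small GTPase, -2.34 for the transcript 2900041M22Rik, -1.69 for Stx18, a syntaxin, -1.15 for Ppme1, a phosphatase methylesterase, and -1.12 for Serpina3g, a serpin of a multigene family. In 50 IU/mL IL-2v, 5 of the 10 genes stayed under 20 CPM in both classes: Iqgap3 with 10 UMIs against 28, Kif2c with 17 against 34, Rhob with 9 against 29, 2900041M22Rik with 5 against 20 and Stx18 with 15 against 34. Rhob was higher in cells with neither UMI in 6 of 6 other libraries.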

How the results depend on the processing

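The count of genes at least 2-fold higher (7) became 2 with cells with either UMI weighted to the depth of the others, 12 with all cells thinned, 16 with at least 2 UMIs in cells with either UMI, 79 with cells of at least 4000 UMIs, 1034 with at most 2 UMIs of the G2 and mitosis list in cells with neither UMI, 38 with totals without ribosomal protein and mitochondrial genes, 17 with the mean of single-cell CPM, 2 with a pseudocount of 10 CPM, 236 with no filter, 39 with at most 5% mitochondrial UMIs, 25 with TMM and, chosen after seeing the data, 22 without cells with a UMI of another cell type. The count at least 2-fold lower (159) became 316 with at least 4000 UMIs, 1826 with at most 2 UMIs of the G2 and mitosis list, 85 with the pseudocount, 542 with no filter and 311 with at most 5% mitochondrial UMIs. These settings left 160, 27 and 293 matched cells per class for the depth, G2 and mitochondrial limits, and the cause of the other changes was not tested. The share with neither UMI was 38.0% thinned to 1000 UMIs, 13.4% thinned to 3000 and 13.1% with no thinning.

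In the 6 other libraries, 1656 genes were higher with library totals, and DESeq2 gave 1786 lower. Without the library block, that is without the pairing of classes within a library, 1145 were higher and 1617 lower. The counts with 1 library left out ran from 2438 to 2924 higher and from 2179 to 2932 lower. For the interaction, thinned cells were put into classes anew after thinning and were not matched. The interaction (249 genes) gave 119 with DESeq2, 440 with no matching and, chosen after seeing the data, 137 with at least 4000 UMIs and 433 with all cells thinned; with 1 library left out it gave 197 to 533.

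The median of all genes went from -0.10 to 0.02 with TMM. Named genes whose values changed sign were Smim11 (-1.53 with at most 2 UMIs of the G2 and mitosis list), Ccl5 (-0.033 thinned and -0.24 without cells with a UMI of another cell type), Serpinb6b (-0.026 thinned), Pnp in the other libraries (-0.090 with no matching), and the interactions of Ccl5 (-0.95) and Serpinb6b (-0.68) with all cells thinned. With 1 library per condition and 626 matched cells, small differences of low genes cannot be read. The lower side of the interaction cannot be read as steady either, since its count moved several-fold when single libraries were left out.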
